A study of Oryza sativa with 6 samples.

Results

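ADI1 is listed in the RefSeq gene table for rice (assembly ASM3414082v1) as a synonym of 1 gene, LOC4344439, and the array holds 4 probe sets (groups of short probes read as 1 signal) for it among 57194 probe sets that are not controls. It is 1 of 17905 genes with a probe set of their own. The gene was chosen by its name with its signals on these arrays already known, so its levels and its difference between genotypes are given as a description, with no test. The samples were caryopses (young grains) of rice, collected 7 days after flowering. Wild type was the japonica cultivar Zhonghua11, and it and the gif1 mutant gave 3 arrays each, which the labels call biological repeats. The mutant is named for GIF1 (GRAIN INCOMPLETE FILLING 1), a cell-wall invertase that splits sucrose, and the labels name neither the allele nor the growth conditions. Values are linear signals, and log2 differences are those of log2(signal + 17.7), positive where gif1 was higher.

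The name ADI1 carries 2 meanings here. In animals ADI1 is acireductone dioxygenase, an enzyme of the methionine salvage (Yang) cycle, which returns the methylthio group left over from the making of ethylene, polyamines and nicotianamine to methionine. The gene table, however, lists ferredoxin as the other descriptive synonym of LOC4344439, and it gives the acireductone dioxygenase names ARD1, ARD2, ARD4 and ARD to other genes. Ferredoxin is a small iron-sulphur protein that, in green tissue, takes electrons from photosystem I and passes them to ferredoxin-NADP reductase and to enzymes of nitrogen and pigment metabolism. The annotation thus goes against a place of LOC4344439 in methionine salvage without settling what its product is, so the gene is called LOC4344439 below and both sets of genes were examined.

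The probe sets fell into 2 kinds. The annotation gives 3 of them, Os.12393.2.S1_at, Os.12393.2.S1_s_at and Os.12393.2.S1_x_at, the same source sequence, and the fourth, Os.1314.1.S1_at, another. Identifiers ending in _s_at or _x_at mark probe sets that can also bind related transcripts. Os.12393.2.S1_at carries no such mark.

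Os.12393.2.S1_at read 6967, 5451 and 4953 on the wild-type arrays against 20557, 22873 and 20003 on those of gif1. Every gif1 array lay above every wild-type array, the lowest gif1 value being 2.87 times the highest wild-type value. The share of all probe sets whose groups lay apart was not counted. Wild type averaged 5791 ± 1049 and gif1 21144 ± 1523 (SD, n = 3 each), a log2 difference of 1.88 (SE 0.16).

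Os.12393.2.S1_s_at read 3459, 3127 and 2612 on the wild-type arrays against 12446, 13626 and 11717 on those of gif1. The groups were again apart, with the lowest gif1 value 3.39 times the highest wild-type value. Wild type averaged 3066 ± 427 and gif1 12597 ± 963 (SD, n = 3 each), and the log2 difference was 2.04 (SE 0.13). Of the 4 probe sets it had the largest difference.

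Os.12393.2.S1_x_at read 10456, 6596 and 7320 on the wild-type arrays against 23105, 24292 and 20608 on those of gif1. Here the groups lay closest among the 3 of shared source, with the lowest gif1 value 1.97 times the highest wild-type value. Wild type averaged 8124 ± 2052 and gif1 22668 ± 1880 (SD, n = 3 each), a log2 difference of 1.504 (SE 0.21). Wild-type replicate 1 was the highest of its group on all 3 of these probe sets, and gif1 replicate 2 the highest of its own.

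Os.1314.1.S1_at read 286.5, 67.5 and 7.2 on the wild-type arrays against 227.5, 198.3 and 62.7 on those of gif1. Its groups overlapped, and the highest of the 6 values was a wild-type one. Wild type averaged 120.4 ± 147 and gif1 163 ± 87.9 (SD, n = 3 each), with a log2 difference of 0.91 (SE 1.16). Without wild-type replicate 3, its lowest array, the difference was 0.01, and without wild-type replicate 1 it was 1.82. The SE is larger than the difference, and this probe set gives no direction for the gene.

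**Figure D1:**
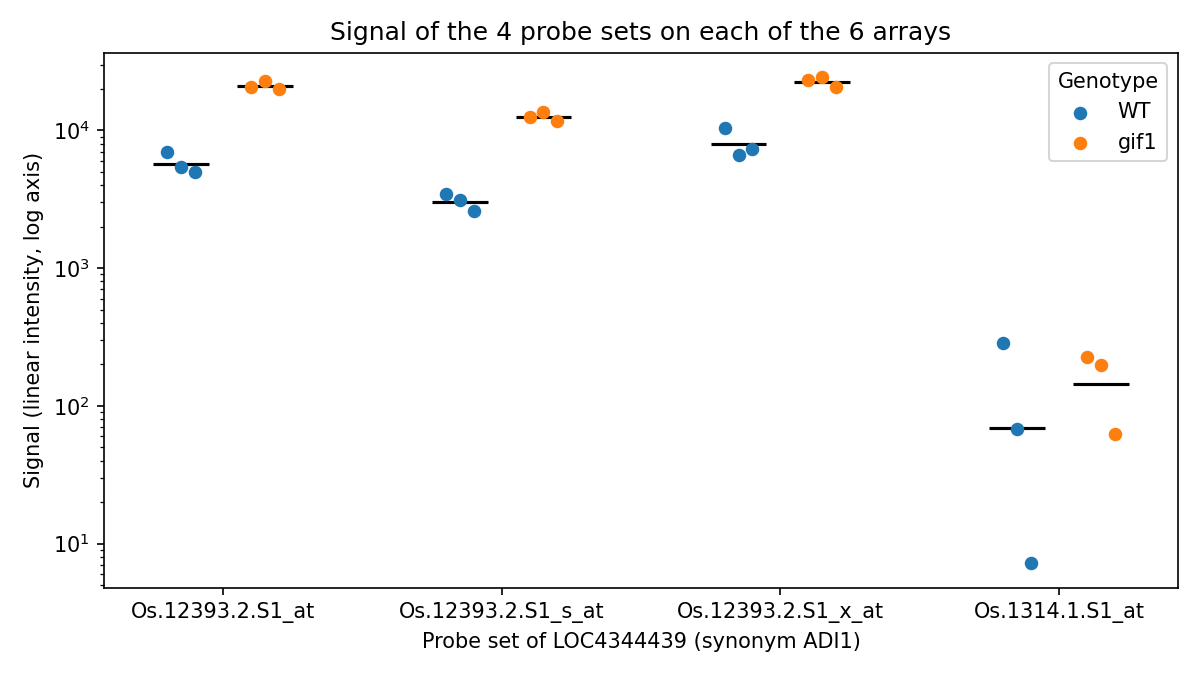
Signal (linear intensity, logarithmic axis) of each probe set of LOC4344439 on the 3 WT (wild-type, blue) and 3 gif1 (orange) arrays, 1 point per array, with a black line at the mean of log2(signal + 17.7) turned back to signal. On the 3 probe sets of shared source all gif1 points lie above all WT points, whereas those of Os.1314.1.S1_at overlap.

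Among all probe sets of each array the 3 of shared source stood near the top. On the wild-type arrays 2.31% to 3.48% of probe sets were brighter than Os.12393.2.S1_at, and on the gif1 arrays 0.435% to 0.558%. For Os.12393.2.S1_s_at the shares were 4.95% to 6.70% and 1.08% to 1.33%, and for Os.12393.2.S1_x_at 1.52% to 2.52% and 0.388% to 0.533%. Os.1314.1.S1_at ranged from 30.6% to 89.1% in wild type and from 32.1% to 53.3% in gif1. These ranks do not depend on how the arrays are scaled. All 4 probe sets passed the filter on mean signal (at least 74.1 over the 6 arrays). Ordered by the rise in gif1 among the 28597 probe sets that passed, Os.12393.2.S1_s_at was at place 102, Os.12393.2.S1_at at 154, Os.12393.2.S1_x_at at 305 and Os.1314.1.S1_at at 1122.

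The difference held its direction on the 3 probe sets of shared source under every offset and scaling tried. Centring each array on its median gave 2.21 for Os.12393.2.S1_at, 2.38 for Os.12393.2.S1_s_at and 1.84 for Os.12393.2.S1_x_at, and scaling to the hybridization controls gave 2.36, 2.52 and 1.98. Leaving out single arrays moved Os.12393.2.S1_x_at between 1.37 and 1.70, the ends being without wild-type replicate 2 and without wild-type replicate 1.

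Some properties of the arrays moved with genotype. The poly-A controls, added before labelling, differed by -2.23 on the log2 scale, the hybridization controls, added after it, by -0.48 and the median signal by -0.41. For each of these the 3 gif1 values were under the 3 wild-type values (exact permutation test, two-sided, p = 0.1, the lowest p this design can give, and 0.2 adjusted over 6 measures). Ratios of 3' to 5' signal for actin, GAPDH and cyclophilin overlapped between genotypes (exact permutation p = 0.2 to 0.9). GIF1 itself read 654.2, 428.6 and 607.7 on the wild-type arrays against 173.3, 100.9 and 190.4 on those of gif1 (limma adjusted p = 0.00254). Storage protein, dehydrin and photosynthesis genes served among the markers of starchy endosperm, of aleurone and embryo and of green pericarp. The lowest signal of a tested marker gene was 10143.8, 176 and 1055.5 in these lists. No marker probe set read 0, which does not by itself show that a gene was present.

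Most tested markers of the green pericarp, the outer layer of the young grain, moved with LOC4344439, though the brightest, CAB2R, did not. In the marker list 4 of 5 tested genes rose in gif1 and none fell, against 7.92% higher and 5.63% lower of all 15423 genes tested at a limma adjusted p under 0.05. Their median log2 difference was 0.90, against 0.03 over all genes. They were RBCS, the small subunit of Rubisco (2.23, SE 0.20), its activase RCA (1.43, SE 0.14), PSAH, a subunit of photosystem I (0.90, SE 0.12), and PETE, which is plastocyanin (0.78, SE 0.11), while the chlorophyll-binding protein CAB2R differed by -0.25 (SE 0.09, limma adjusted p = 0.106). A second CAB2R probe set differed by 0.15 (SE 0.10) and did not pass. Of 2 further tested RBCS probe sets, both dimmer, 1 passed (0.86, SE 0.21) and the other did not (-0.46, SE 0.30). The summed signal of the 5 ran from 74776 to 79974 in wild type and from 93789 to 114891 in gif1, and RBCS1 and CAB1R had no tested probe set. Of the starchy endosperm markers 9 of 9 fell, but 1 of 9 with quantile normalization, median centring or spike scaling (scaling to the hybridization controls), 2 of 9 with no filter on mean signal, 6 of 9 without gif1 replicate 1 and 4 of 9 without gif1 replicate 3. Their summed signal ran from 665815 to 841292 in wild type and from 467949 to 528613 in gif1. Of 6 aleurone and embryo markers 4 fell and 1 rose, with sums from 45801 to 81719 and from 19141 to 21497. The one that rose, OSH1, did not pass without wild-type replicate 2 or 3, without any single gif1 array or without the intensity trend. In caryopses taken whole, more cells of a type and more RNA per cell cannot be told apart, and the part of the pericarp in the LOC4344439 signal was not tested.

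A list of genes around ferredoxin held more genes called higher in gif1 than lower. Of its 10 genes 6 rose, none fell and 4 did not pass, with a median of 0.58. Of all genes tested 7.92% were higher and 5.63% lower. The 10 have a symbol in the table and were picked after the annotation of LOC4344439 was seen, with some of their results known. Since the list was chosen in this way, its count is no independent evidence of a direction. With quantile normalization, without the intensity trend, or without any single gif1 array, 4 rose. With median centring 8 rose, and with spike scaling 9. Among the 6 risers petC and PSAG belong to the electron chain upstream of ferredoxin, and NifU1 is a scaffold for cluster assembly. The other risers, LFNR1, LOC4334338 and Fd-GOGAT, exchange electrons with ferredoxin, as do the products of the 4 that did not pass.

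Of the listed ferredoxin-NADP reductases, which pass electrons between ferredoxin and NADP, LFNR1 changed most. It read 545.8, 323.3 and 369.1 on the wild-type arrays against 1440, 1759 and 1383 on those of gif1, with groups far apart (1.87, SE 0.20, limma adjusted p = 0.000386). The reductase gene LOC4334338 rose less (0.58, SE 0.15, limma adjusted p = 0.0327), a call lost when an array other than wild-type replicate 1 was left out (adjusted p 0.0604 to 0.13) and with quantile normalization (0.0523). LOC4342399, the remaining one listed, differed by 0.22 (SE 0.12, limma adjusted p = 0.269). LFNR1 passed under every alternative run (limma adjusted p at most 0.0307).

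Ferredoxin-dependent glutamate synthase, Fd-GOGAT, which assimilates ammonium in plastids, went from 1266 ± 103 to 2421 ± 172 (SD, n = 3; 0.93, SE 0.13, limma adjusted p = 0.00153). The groups did not overlap on that probe set. A second Fd-GOGAT probe set passed too (0.94, SE 0.19, limma adjusted p = 0.011) and another, dim one did not (0.49, SE 0.34). The regulatory target of ferredoxin, ferredoxin-thioredoxin reductase (FTR-B/FTR-C, 0.33, SE 0.18, limma adjusted p = 0.262), and the haem oxygenases HO1 (-0.16, SE 0.24) and HO2 (0.15, SE 0.17) did not pass. FTR-B/FTR-C passed as higher with median centring (0.66) and spike scaling (0.81), and HO2 with spike scaling (0.63).

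Upstream of ferredoxin in the electron chain, petC, the Rieske iron-sulphur protein of the cytochrome complex, went from 3501 ± 363 to 6723 ± 645 (SD, n = 3; 0.94, SE 0.12, limma adjusted p = 0.000994). The photosystem I subunit PSAG rose by 0.57 (SE 0.16, limma adjusted p = 0.0364), a call lost without wild-type replicate 1 or any single gif1 array (adjusted p 0.0605 to 0.132), with quantile normalization (0.0553) and with a replicate block (0.0551). NifU1, a scaffold on which iron-sulphur clusters are built, read 89.1, 112.2 and 91.0 on the wild-type arrays against 761.8, 701.5 and 884.3 on those of gif1 (2.80, SE 0.22, limma adjusted p = 7.44e-05). Its gif1 arrays were several times above all wild-type arrays. A dimmer NifU1 probe set was under the filter and was not tested.

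In the methionine salvage list 1 of 5 tested genes passed, as higher, and 4 did not, with a median log2 difference of 0.20. That median is the value of the ARD2 record, which also carries a heat shock factor name. Of all genes tested 7.92% were higher. With median centring 2 of the 5 passed as higher and with spike scaling 3. The gene that rose was ARD4 (LOC4348647), named as an acireductone dioxygenase, the enzyme that the symbol ADI1 stands for in animals. It read 1973, 1472 and 1664 on the wild-type arrays against 4369, 4167 and 3757 on those of gif1, with no overlap. The means were 1703 ± 253 and 4098 ± 312 (SD, n = 3), a log2 difference of 1.27 (SE 0.14, limma adjusted p = 0.000386), and ARD4 passed under every alternative run (limma adjusted p at most 0.0327).

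Its relatives did not follow at a size that passed. The table places ARD1, ARD and ARD4 next to each other in gene order, and ARD had no probe set. The gene with the names ARD1 and IDI1 read 462.5, 613.7 and 574.7 on the wild-type arrays against 509.4, 551.2 and 622.7 on those of gif1, with overlapping groups (0.03, SE 0.18, limma adjusted p = 0.929). That with the name ARD2 read 5082 ± 82.7 and 5854 ± 143 (SD, n = 3; 0.20, SE 0.10, limma adjusted p = 0.214), and passed as higher with median centring (0.54) and spike scaling (0.68). Both records also carry heat shock factor names (HSFA2C and HSFA2D), and which product their probe sets measure is not known. In each a second probe set did not pass either (-0.14 and -0.33).

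Among the other steps, MTK1, the kinase of methylthioribose, read 3635 ± 709 and 3254 ± 261 (SD, n = 3; -0.14, SE 0.15, limma adjusted p = 0.552). IDI2, the isomerase that acts after it, differed by 0.44 (SE 0.31, limma adjusted p = 0.393) and by -0.33 (SE 0.44) on a second probe set. The brighter one moved to 0.15 without wild-type replicate 1 and 0.82 without wild-type replicate 2, and passed as higher with spike scaling (0.92). The S-adenosylmethionine synthetases, which turn methionine into the methyl donor that feeds the cycle, were bright and close between genotypes. SAM1 differed by 0.05 (SE 0.12) and SAM2 by 0.02 (SE 0.13), neither passing. With spike scaling both passed as higher (0.53 and 0.50), and with median centring SAM1 did (0.39). METK3 was under the filter.

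Genes of the pathways that release the methylthio by-product were examined next, though for ethylene and polyamines not the releasing step itself. The ethylene synthesis genes ACS1 and ACS2 were under the filter and ACS5 had no probe set. The tested ethylene genes were ACO1, receptors and signalling factors, and the tested polyamine genes were decarboxylases. Of 9 tested ethylene genes 1 fell and 8 did not pass, with a median of -0.05, beside 5.63% lower of all genes tested, and with spike scaling none of the 9 fell and 3 rose. EIL1B, an ethylene-response transcription factor, read 6404, 5676 and 5771 on the wild-type arrays against 3957, 3691 and 4552 on those of gif1 (-0.55, SE 0.12, limma adjusted p = 0.0131). Its groups were apart, but the call was lost without gif1 replicate 1 (0.0579) or 2 (0.0645), by median centring (-0.21) and by scaling to the hybridization controls (-0.07). The ethylene receptors ETR4 (-0.82, SE 0.26, limma adjusted p = 0.0623) and ERS2 (0.19, SE 0.26) and the factor EIL1A (0.20, SE 0.12) did not pass. EIL1A passed as higher with median centring (0.54) and spike scaling (0.68). ETR4 passed as lower without wild-type replicate 2 (-1.05, limma adjusted p = 0.0398). None of 3 tested polyamine genes passed (limma; 1, ADC1, had an unadjusted p under 0.05), and their median was -0.06. Arginine decarboxylase ADC1 differed by -0.46 (SE 0.14, limma adjusted p = 0.0579) and passed as lower with quantile normalization (0.0434), array weights (0.0437) and without wild-type replicate 3 (0.0298). A second ADC1 probe set differed by -0.61 (SE 0.19, limma adjusted p = 0.0581). SAMDC, S-adenosylmethionine decarboxylase, differed by 0.11 (SE 0.12) and ADC2 by -0.06 (SE 0.40). SAMDC passed as higher with median centring (0.45) and spike scaling (0.59).

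Of 21 tested genes of nicotianamine synthesis and iron transport 4 rose, none fell and 17 did not pass, with a median of 0.10, against 7.92% higher and 5.63% lower of all genes tested. Without gif1 replicate 1 or 2 only 1 of them rose, and without gif1 replicate 3 only 2. The metal transporter NRAMP5 read 244.3, 124.6 and 165.3 on the wild-type arrays against 504.7, 428.7 and 723.3 on those of gif1 (1.55, SE 0.28, limma adjusted p = 0.0057), with no overlap. YSL7 (1.79, SE 0.45, limma adjusted p = 0.0261) and YSL14 (0.88, SE 0.23, limma adjusted p = 0.0276), of the yellow stripe-like transporter family, and NRAMP2 (0.59, SE 0.14, limma adjusted p = 0.0212) rose as well. The call of YSL7 was lost without gif1 replicate 1 (0.0957) or 2 (0.103). Those of YSL14 and NRAMP2 were lost without any single gif1 array (adjusted p 0.0825 to 0.105, and 0.0623 to 0.0864), and also without wild-type replicate 2 (0.0742) and 3 (0.0551) respectively. The nicotianamine synthases NAS1 (-0.47, SE 0.17, limma adjusted p = 0.0925) and NAS3 (-0.06, SE 0.17), whose reaction gives off methylthioadenosine, did not pass.

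**Figure D2:**
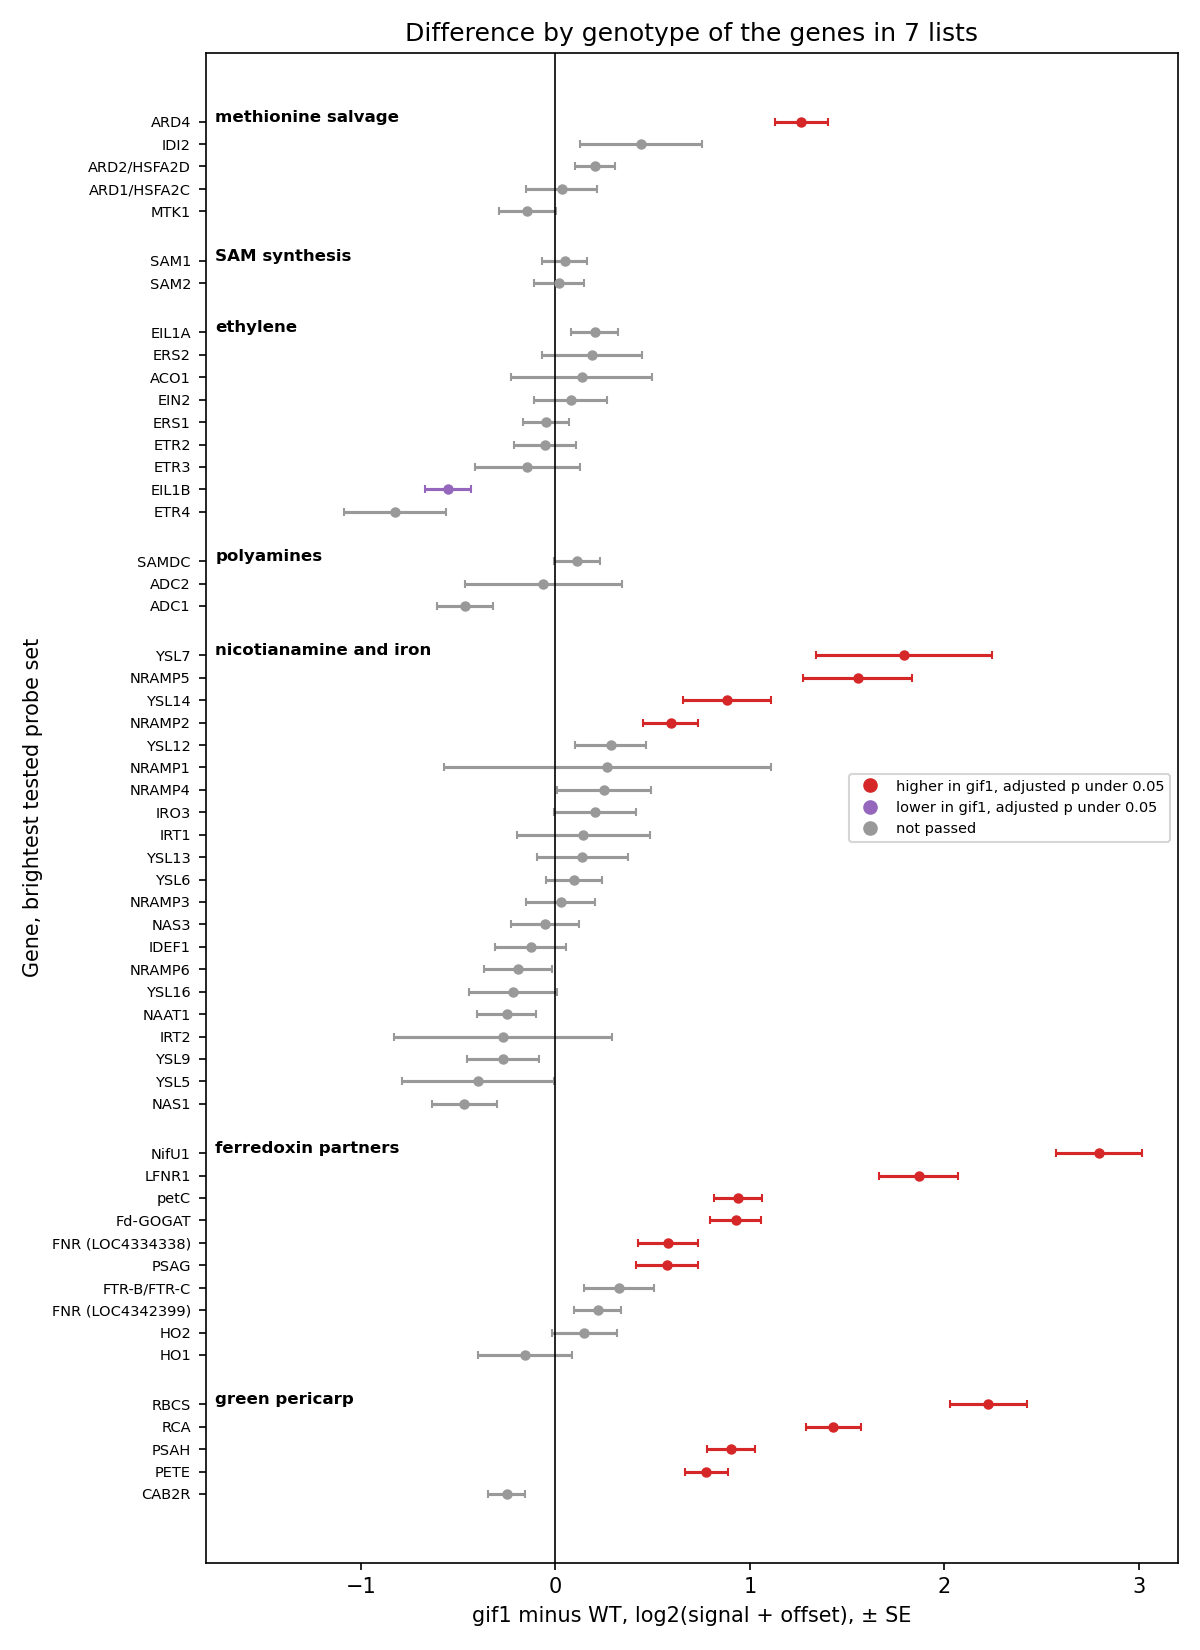
Difference of gif1 minus WT on the log2(signal + 17.7) scale, with its SE from limma, for the brightest tested probe set of each gene in 7 lists, coloured by whether the limma adjusted p was under 0.05. Of the methionine salvage list ARD4 alone is coloured. In the list labelled ferredoxin partners 6 of 10 genes are coloured as higher, and 4 of 5 green pericarp markers.

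Over the 6 arrays the pattern of the brightest LOC4344439 probe set was most like that of genes that were higher in gif1. Likeness was the Pearson correlation of log2 values with the brightest probe set, Os.12393.2.S1_x_at, across 14375 genes, and it is given as a description, since the arrays form 2 groups and 1039 genes had a correlation above 0.9. The 5 most alike were LOC4329519 (0.9992), LOC4349114 (0.9980), LFNR1 (0.9976), LOC4326019 (0.9975) and LOC4332205 (0.9975). By its _x_at ending the brightest probe set can also bind related transcripts. With Os.12393.2.S1_at the same 5 genes had correlations of 0.9827 to 0.9923, and with Os.12393.2.S1_s_at 0.9688 to 0.9824. Places in the order belong to the brightest probe set alone. LFNR1 is the ferredoxin-NADP reductase described above. LOC4349114 is GDCSH, the H protein of glycine decarboxylase in photorespiration, and it went from 609 ± 216 to 2578 ± 153 (SD, n = 3; 2.10, SE 0.21, limma adjusted p = 0.000216).

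The remaining 3 of the most alike have no other name in the table and differed less. LOC4329519 differed by 0.89 (SE 0.19, limma adjusted p = 0.0123), LOC4326019 by 0.47 (SE 0.12, limma adjusted p = 0.0294) and LOC4332205 by 0.46 (SE 0.11, limma adjusted p = 0.0185). Each of these lost its call when some single arrays were left out, without gif1 replicate 1 for all of them (adjusted p = 0.0526, 0.0979 and 0.0742), and LOC4326019 also with quantile normalization (0.0552) and a replicate block (0.0527). ARD4 stood at place 14 (0.9947) and NifU1 at place 540 (0.9398). The second salvage gene in this order was that with the name ARD2 (place 1072, 0.8975), and MTK1 had a correlation of -0.52.

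**Figure D3:**
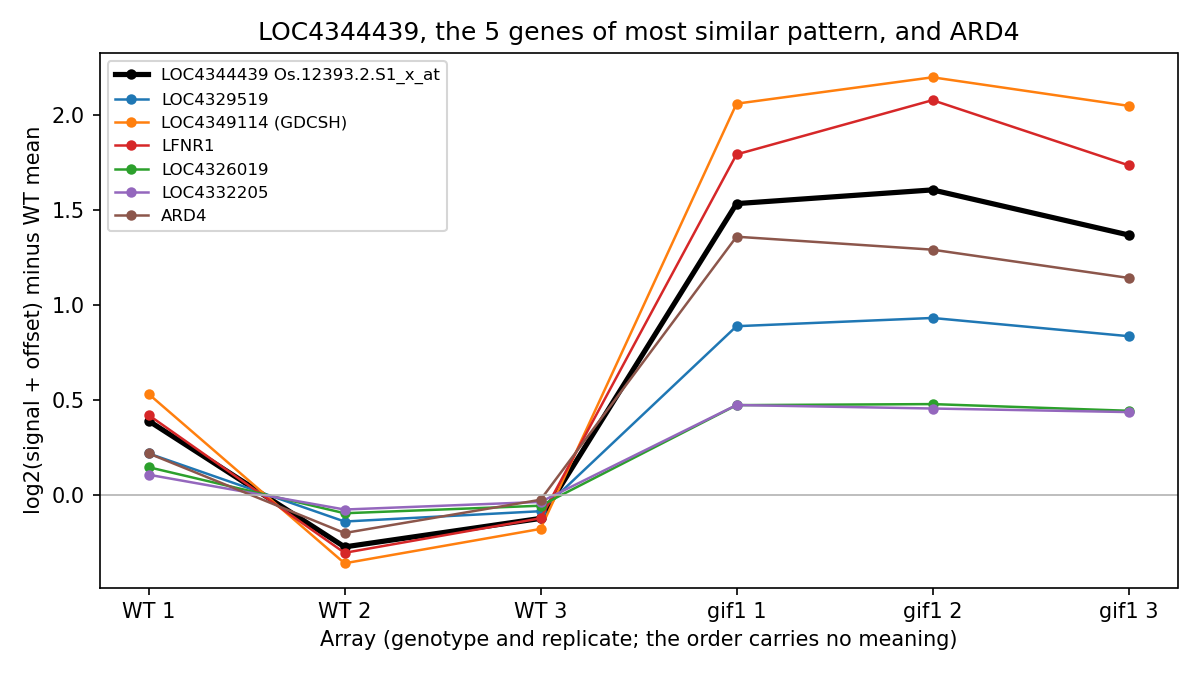
log2(signal + 17.7) on each array minus the gene's WT mean, for the brightest probe set of LOC4344439 (black), the 5 genes of most similar pattern and ARD4. All lines are higher in WT replicate 1 than in the other WT arrays and higher still on the gif1 arrays, with GDCSH and LFNR1 above LOC4344439 and ARD4 below it.

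The genes on either side of LOC4344439 in the RefSeq order did not share its pattern as a block. Of all genes tested 7.92% were higher and 5.63% lower. Of the 3 nearest protein-coding genes on each side, all tested, 2 rose, 1 fell and 3 did not pass. The one that fell is the direct neighbour LOC4344438, which read 5134, 3496 and 9123 on the wild-type arrays against 1292, 1280 and 1064 on those of gif1 (-2.16, SE 0.27, limma adjusted p = 0.000737). Its groups were apart, in the opposite order to those of LOC4344439. The direct neighbour on the other side, LOC4344440, differed by 0.02 (SE 0.20, limma adjusted p = 0.952). The risers were LOC4344436 (0.55, limma adjusted p = 0.0294), whose call was lost without wild-type replicate 3 or any single gif1 array (adjusted p 0.0626 to 0.125) and with a replicate block (0.0529), and LOC4344442 (0.91, limma adjusted p = 0.0181), whose call was lost without wild-type replicate 2 or gif1 replicate 2 or 3 (0.0548 to 0.0881).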

How the data were processed

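Total RNA of 6 caryopsis samples was labelled with biotin and hybridized, 1 array each. The authors deposited 1 linear intensity for each probe set, and the submitters' processing notes name GCOS 1.4. For background correction and scaling the settings are not given in the sources used here. An array mean after trimming 2% at each end was close to 500 on all of them. Columns were matched by their sample labels, and no column was left out (0). Of 57381 probe sets 187 controls (AFFX and RPTR) were left out. The scale was log2(signal + 17.7), with an offset at percentile 25 of the values, which understates changes of dim probe sets. A mean signal of 74.1 or more was required, and 28597 probe sets entered the test, run in limma 3.58.1 under R 4.3.3 (lmFit, eBayes with an intensity trend, genotype only, Benjamini-Hochberg over all tested, threshold 0.05). The fit was tested on simulated data. Each gene is its brightest tested probe set, and 22436 probe sets had 1 gene. For LOC4344439 the SE is that of the 6 arrays alone, without limma. Each limma p-value sets a difference against a variance moderated over the tested probe sets along the intensity trend. The number of arrays (6) limits the precision. Same-numbered replicates did not deviate together (correlations -0.0342, 0.0218 and -0.0470). These values show no pairing by replicate number, though they cannot show that same-numbered arrays shared no batch. Plots used Python 3.11.15 with matplotlib 3.10.9.

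The gene and the lists were chosen with earlier results of these data known. The lists were matched by symbol or synonym: methionine salvage (6 genes matched), S-adenosylmethionine synthesis (3), ethylene (12), nicotianamine and iron (32), polyamines (4), and markers of green pericarp (7), starchy endosperm (11), and aleurone and embryo (6). Matches whose symbol stands for another product were left out, except the records of ARD1 and ARD2. These also carry heat shock factor names and were kept. The text names every tested salvage gene, up to 4 genes of smallest p of the other lists, and the 5 genes most like LOC4344439 that are not of an _x_at probe set. The ferredoxin partners, neighbours, GIF1, and for context CAB2R, OSH1, NAS1 and NAS3, were added after the annotation or values were seen. The alternatives were other offsets, quantile normalization, median centring, spike scaling (added later), a replicate block, array weights, no intensity trend, no filter, the mean over a gene's probe sets, and each array left out.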

Additional observations from a re-analysis of the deposited data

How the results depend on the processing

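LOC4344439's brightest probe set stood at 1.504 and moved by more than the replicate spread only with median centring (1.84) and spike scaling (1.98); single arrays left out gave 1.37 to 1.70. Of all probe sets 3425 were called (1709 higher, 1716 lower), 6430 with median centring (90.5% higher), 9262 with spike scaling (95.4% higher), 784 without the intensity trend and 1436 to 4294 without single arrays. The median log2 difference of all tested probe sets was -0.06, against 0.28 with median centring and 0.42 with spike scaling. Of 40 tested genes in the 5 pathway lists 6 were called (5 higher, 1 lower), beside 7.92% higher and 5.63% lower of all genes tested. The count was 10 with median centring, 17 with spike scaling, 1 without the intensity trend and 2 to 7 without single arrays. Without the intensity trend ARD4 was the pathway gene called; NifU1, LFNR1, petC, Fd-GOGAT, RBCS, RCA, PSAH, GDCSH, LOC4329519, LOC4344438 and GIF1 were also called there, while NRAMP5 (adjusted p = 0.052), PETE (0.0558), the other called iron and ferredoxin genes, EIL1B and the endosperm markers were not. The other settings stayed within 1.5 times these counts. The replicate block gave 2830 probe sets and 6 pathway genes, and it left LOC4344439's difference at 1.504; of the named genes it ended the calls of PSAG, LOC4326019 and LOC4344436. Small differences that did not pass changed sign: MTK1 with median centring (0.19) and spike scaling (0.33), HO1 likewise (0.18 and 0.32), ADC2 with quantile normalization (0.23), median centring (0.27) and spike scaling (0.42), ADC1 with spike scaling (0.016), ARD1 with array weights (-0.0020) and SAM2 with quantile normalization (-0.00084). Without single arrays the ranges that crossed 0 were -0.24 to 0.0091 for MTK1, -0.37 to 0.18 for HO1, -0.26 to 0.24 for ADC2, -0.084 to 0.11 for ARD1, -0.021 to 0.32 for ERS2, -0.049 to 0.16 for SAM1, -0.060 to 0.15 for SAM2 and -0.18 to 0.19 for LOC4344440. The causes were not tested.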

Other observations

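A second gene, LOC4342077, has probe sets whose identifiers share the number of the main LOC4344439 probe sets, and the table gives it no other name. It was higher in gif1 on both of its probe sets, chosen here after their values were seen. The S2_a_at probe set read 4023, 3182 and 3475 on the wild-type arrays against 5346, 5891 and 5730 on those of gif1 (0.67, SE 0.12, limma adjusted p = 0.00542), and its S1_at probe set read 1504, 1523 and 1603 on the wild-type arrays against 2637, 2404 and 2650.4 on those of gif1 (0.72, SE 0.12, limma adjusted p = 0.00371). The groups did not overlap on either. The first lost its call without the intensity trend in the variance model (adjusted p = 0.0685). Whether the probes of one gene bind transcripts of the other was not tested.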
